A study of Mus musculus with 11 samples.

Results

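Calcium channels, calcium pumps and the proteins of store-operated calcium entry were followed in RNA-seq of mouse airway as a set of 43 genes, chosen by mapping the mouse Ensembl identifiers of the expression table to a list of gene symbols. All 43 were found among the 21899 genes of the table. The mice were wild-type BALB/c males of 6 to 8 weeks. Mice of the PBS group received PBS only. Mice of both other groups were sensitised intraperitoneally with 50 µg of ovalbumin (OVA) in alum on days 0 and 7, challenged intranasally with 5 µg of OVA on days 14 to 17 and given 50 ng of lipopolysaccharide (LPS) intranasally on days 19 and 21. On days 21 to 23 they received either vehicle (OVA/LPS/Vehicle) or 0.5 mg/kg of GGsTop, an inhibitor of γ-glutamyl transferase, into the trachea (OVA/LPS/GGsTop), and tissue was taken on day 25. The PBS group had 3 libraries and each OVA/LPS group 4. Below, the values of a gene follow the order PBS 1 to 3, OVA/LPS/Vehicle 12, 34, 56 and 78, and OVA/LPS/GGsTop 1 to 4. Whether the numbers 12, 34, 56 and 78 stand for pooled mice is not stated, and nothing in the labels says that libraries of a group came from separate mice, so the p-values measure the spread between these libraries, which may be technical.

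Cells keep the calcium of the cytosol low and admit it in pulses. Voltage-gated channels open on depolarisation of muscle, nerve and endocrine cells, whereas inositol trisphosphate receptors and ryanodine receptors release calcium from the endoplasmic or sarcoplasmic reticulum. When the reticulum is emptied, STIM proteins sense the loss and open ORAI channels in the plasma membrane. Pumps of the reticulum and the plasma membrane, exchangers and mitochondria then remove the calcium. In the airway these proteins serve the contraction of smooth muscle, secretion and ciliary beating by the epithelium and the activation of leukocytes.

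The libraries held between 14513136 and 18632382 fragments, as recovered from the FPKM (fragments per unit of exon length and of library size), in which levels of different genes can be compared. The labels call the tissue trachea, while the methods of the study describe bluntly dissected airway with the trachea left out. Markers of airway epithelium were abundant, Scgb1a1 of club cells in the lead with 26145 to 47905 FPKM, and Sftpc of alveolar epithelium was also present at 3541 to 12502 FPKM. The summed level of 8 markers of cartilage, Acan in the lead, was 26, 77.1 and 0.727 FPKM in the PBS libraries. It was 22.6, 30.7, 10.9 and 19.2 FPKM in the OVA/LPS/Vehicle libraries and 1.25, 20, 0.673 and 78.6 FPKM in the OVA/LPS/GGsTop libraries. Of these markers, Col2a1, Acan, Matn1, Col9a1 and Cnmd were listed at 0 in at least 1 library. Several libraries stood apart before any comparison. In PBS 3 the deviations from the gene means rose by 0.533 log2 per 10 points of GC content, against 0.0611 and 0.0484 in PBS 1 and PBS 2, slopes of −0.261 to −0.190 in the vehicle libraries and of 0.0464 to 0.108 in the GGsTop libraries. In PBS 2 the summed level of 14 markers of cardiac muscle was 2074 FPKM, against 98.9 and 148 FPKM in PBS 1 and PBS 3. The summed level of 8 markers of thyroid, Tg in the lead, was 99.6, 189 and 334 FPKM in OVA/LPS/Vehicle 12, 34 and 56, but 5.55 FPKM in OVA/LPS/Vehicle 78 and 4.83 to 7.66 FPKM in the PBS and GGsTop libraries, with Pax8 and Slc26a7 listed at 0 in at least 1 library. That of 6 markers of thymocytes, Cd8b1 in the lead, was 46.5 FPKM in OVA/LPS/Vehicle 12 and at most 6.37 FPKM in all others, with Rag1, Rag2, Ptcra and Dntt listed at 0 in at least 1 library. The sum of 6 markers of adipocytes, Ucp1 in the lead, was 105, 170 and 17.6 FPKM with PBS. It was 630, 163, 280 and 213 FPKM with OVA/LPS/Vehicle and 15.8, 145, 11.7 and 148 FPKM with OVA/LPS/GGsTop, with Lep and Ucp1 listed at 0 in at least 1 library. Fold changes are therefore given on the deposited values and, where the call differs, after a correction for GC content, and with these libraries left out. Calls of cell type markers are given only on the deposited values with all libraries.

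Of the 43 genes, 37 averaged 0.5 FPKM or more and entered a limma fit of log2(FPKM + 1) over all 14004 such genes. A gene was called at a Benjamini-Hochberg adjusted p under 0.05. Log2 fold changes are on the log2(FPKM + 1) scale, which understates the change of weakly expressed genes. The remaining genes, Cacna2d3, Cacnb4, Ryr1, Ryr3, Trpc4 and Casr, lay under the filter. Atp2a2, the calcium pump of the sarcoplasmic and endoplasmic reticulum best known from heart, was the most abundant gene of the set with a mean of 184 FPKM over the 11 libraries, followed by its relative Atp2a3 with 66 FPKM and the store-operated channel Orai3 with 20.4 FPKM. In bulk tissue a smaller number of cells of a type and less RNA per cell cannot be told apart.

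**Figure D1:**
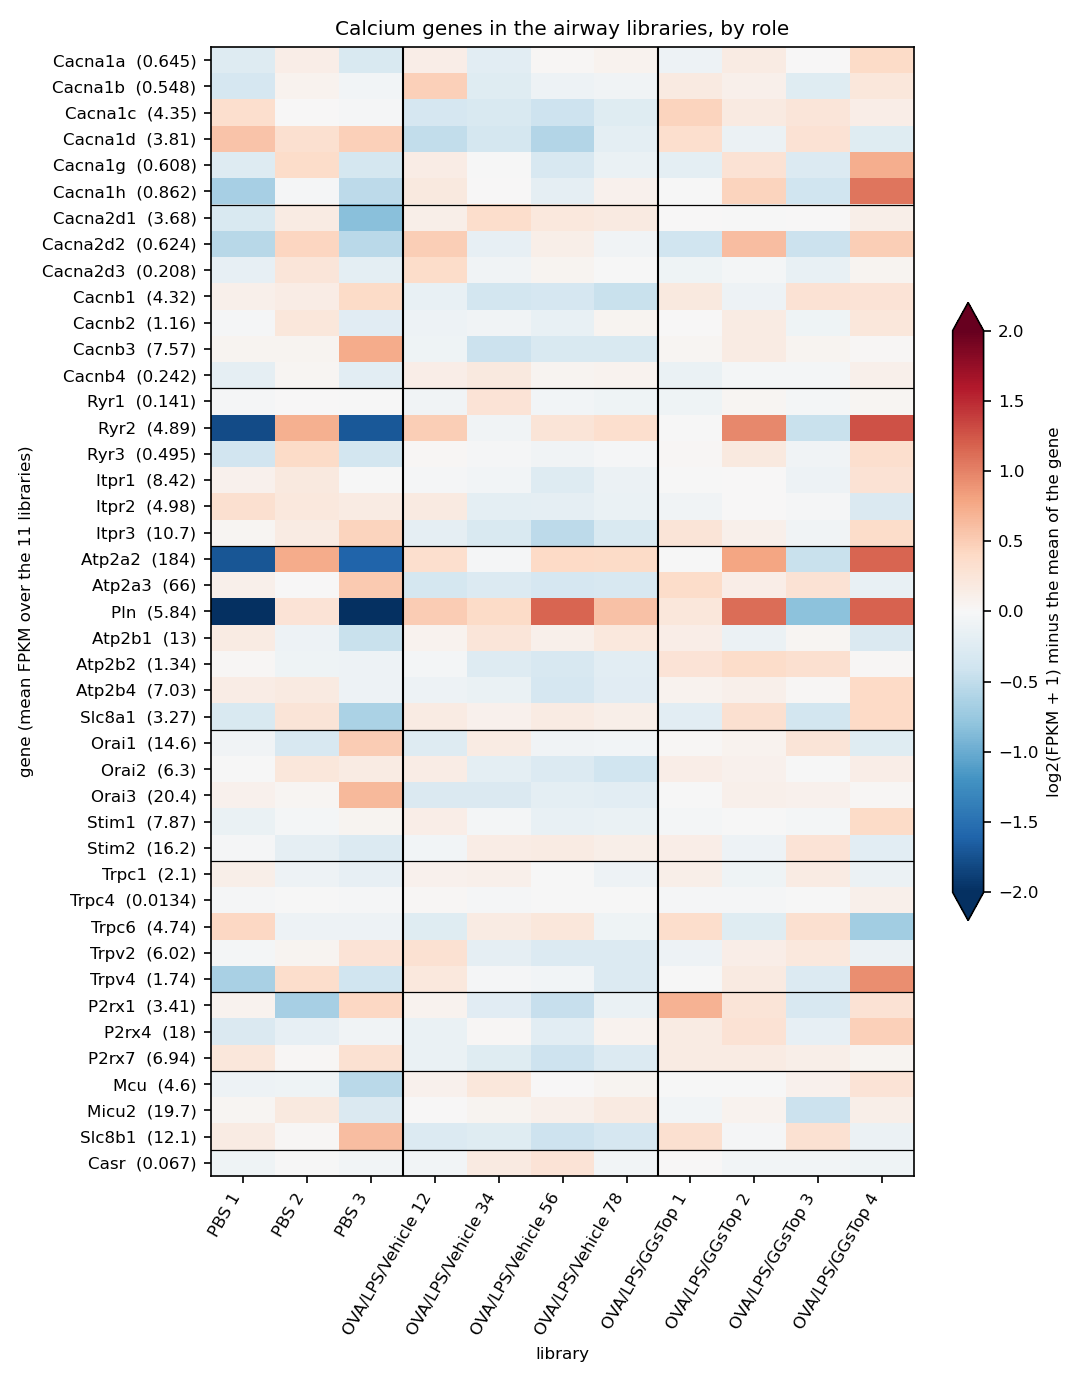
Each row is a gene of the set with its mean FPKM in brackets, and each column a library; the colour gives log2(FPKM + 1) minus the gene's mean over the 11 libraries, and the colours stop at differences of 2. Most rows are pale, whereas Ryr2, Atp2a2 and Pln are dark blue in PBS 1 and PBS 3 and red in OVA/LPS/GGsTop 2 and OVA/LPS/GGsTop 4, Pln also in OVA/LPS/Vehicle 56.

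The comparison of OVA/LPS/Vehicle with PBS asks how the airway of the exacerbation model differs from that of naive mice. There, 9 of the 37 genes were called lower and 2 higher, where 22.1% of all genes tested were called lower and 15.9% higher. The genes called lower were the pore subunits Cacna1c and Cacna1d, the β subunits Cacnb1 and Cacnb3, Itpr3, Atp2a3, Orai3, the ATP-gated channel P2rx7 and the mitochondrial exchanger Slc8b1. Those called higher were Pln and Cacna2d1. The 9 genes make up 24.3% of the set, a share near that of all genes, and the median log2 fold change was −0.06 over the set and −0.01 over all genes. With every library brought to a common FPKM total, the median of all genes moved to −0.15 and the calls among all genes were split into 4570 lower and 1232 higher, against 3096 and 2231 on the deposited values; the 11 fold changes of the set kept their direction. After the GC correction 5 genes of the set were called lower, Cacna1d, Cacnb2, P2rx7, Cacna1c and Atp2b4, where 13.3% of all genes were. None was called higher by limma on the corrected values, where 8.13% of all genes were. At an unadjusted p under 0.05 there were 11 of the 37 genes, 7 lower and 4 higher, where 5454 of all 14004 genes were in either direction. Without PBS 3 there were 7 calls on the deposited values and 1, Cacna1d, after the correction, 18.9 and 2.7% of the set, where 21.9 and 5.26% of all genes were called. Without PBS 2 there were 15 calls on the deposited values, 9 lower and 6 higher, where 24.2% of all genes were called lower and 21.7% higher. After the correction the fit without PBS 2 called 5 genes lower, Cacna1c, Cacna1d, Cacnb2, Orai3 and P2rx7, and 8 higher, Pln, Ryr2, Atp2a2, Cacna1h, Cacna2d2, Trpv4, Cacna1a and Mcu, where 15.7 and 13.5% of all genes were. OVA/LPS/Vehicle 78, which held little of the thyroid and thymocyte markers, was also taken as the one library of its group. A single library gives no spread of its group, so only fold changes are given for this fit. The 11 fold changes called with all libraries kept their direction, at −0.35 for Cacna1c, −0.66 for Cacna1d and −0.45 for P2rx7.

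The comparison of OVA/LPS/GGsTop with OVA/LPS/Vehicle asks what the inhibitor changed. Cacna1c, Cacnb1, Atp2b2, P2rx7 and Itpr3 were called higher with GGsTop, 5 of 37 genes or 13.5%, where 6.9% of all genes tested were called higher. No gene of the set was called lower by limma, where 1.81% of all genes were, and none had an unadjusted p under 0.05 in that direction. In the other direction 12 of the 37 genes had one, where 4319 of all 14004 genes had one in either direction. The median log2 fold change was 0.17 over the set and 0.03 over all genes. After the GC correction Cacna1c alone remained called, where 1.79% of all genes were called higher and 0.428% lower. In 10 genes of the set every GGsTop library lay above every vehicle library, namely Cacna1c, Cacnb1, Cacnb3, Itpr3, Atp2a3, Atp2b2, Atp2b4, Orai3, P2rx7 and Slc8b1, where this held for 17.3% of all genes. No gene of the set had the opposite arrangement, where 12.4% of all genes had it. With every library brought to a common median, 354 genes of the table were called lower and 344 higher, and at a common FPKM total 155 and 2026, against 254 and 966 on the deposited values. The calls of the set were then 2 at a common median and 10 at a common FPKM total, or 5.41 and 27% where 4.98 and 15.6% of all genes were called. Of the 5 calls of the set none was left without OVA/LPS/Vehicle 34 or 56 or without OVA/LPS/GGsTop 1 or 3, 1 without OVA/LPS/Vehicle 78 and 2 without OVA/LPS/GGsTop 2. With OVA/LPS/Vehicle 78 as the one vehicle library, the fold changes of the 5 called genes were 0.48 for Cacna1c, 0.62 for Cacnb1, 0.46 for Atp2b2, 0.39 for P2rx7 and 0.47 for Itpr3. In the fits without 1 library, in the order given, 0.443, 0.25, 0.171, 0.736, 1.68 and 2.58% of all genes were called.

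Between OVA/LPS/GGsTop and PBS no gene of the set was called by limma, where 2.88% of all genes tested were called on the deposited values and 4.35% after the GC correction. At an unadjusted p under 0.05 there were 9 of the 37 genes, 2 lower and 7 higher, where 2873 of all 14004 genes were. Limma's voom on recovered fragments called none of the 34 genes of the set that it held, where 2.36% of all genes were called. Cacna1a, Cacna1c and Cacna1d, whose values did not give whole fragments in every library, were not in that fit. Among all genes, 115 were called lower and 288 higher, or 243 and 250 at a common FPKM total. Without PBS 2 there were 4 calls, Atp2a2, Ryr2, Pln and Cacna2d1, all higher with GGsTop, and without OVA/LPS/GGsTop 3 there were 2, Pln and P2rx4. These are 10.8 and 5.41% of the set, where 11.4 and 5.55% of all genes were called in the same fits. The 3 comparisons share their libraries in pairs, so the fold changes given side by side below are not independent of each other.

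**Figure D2:**
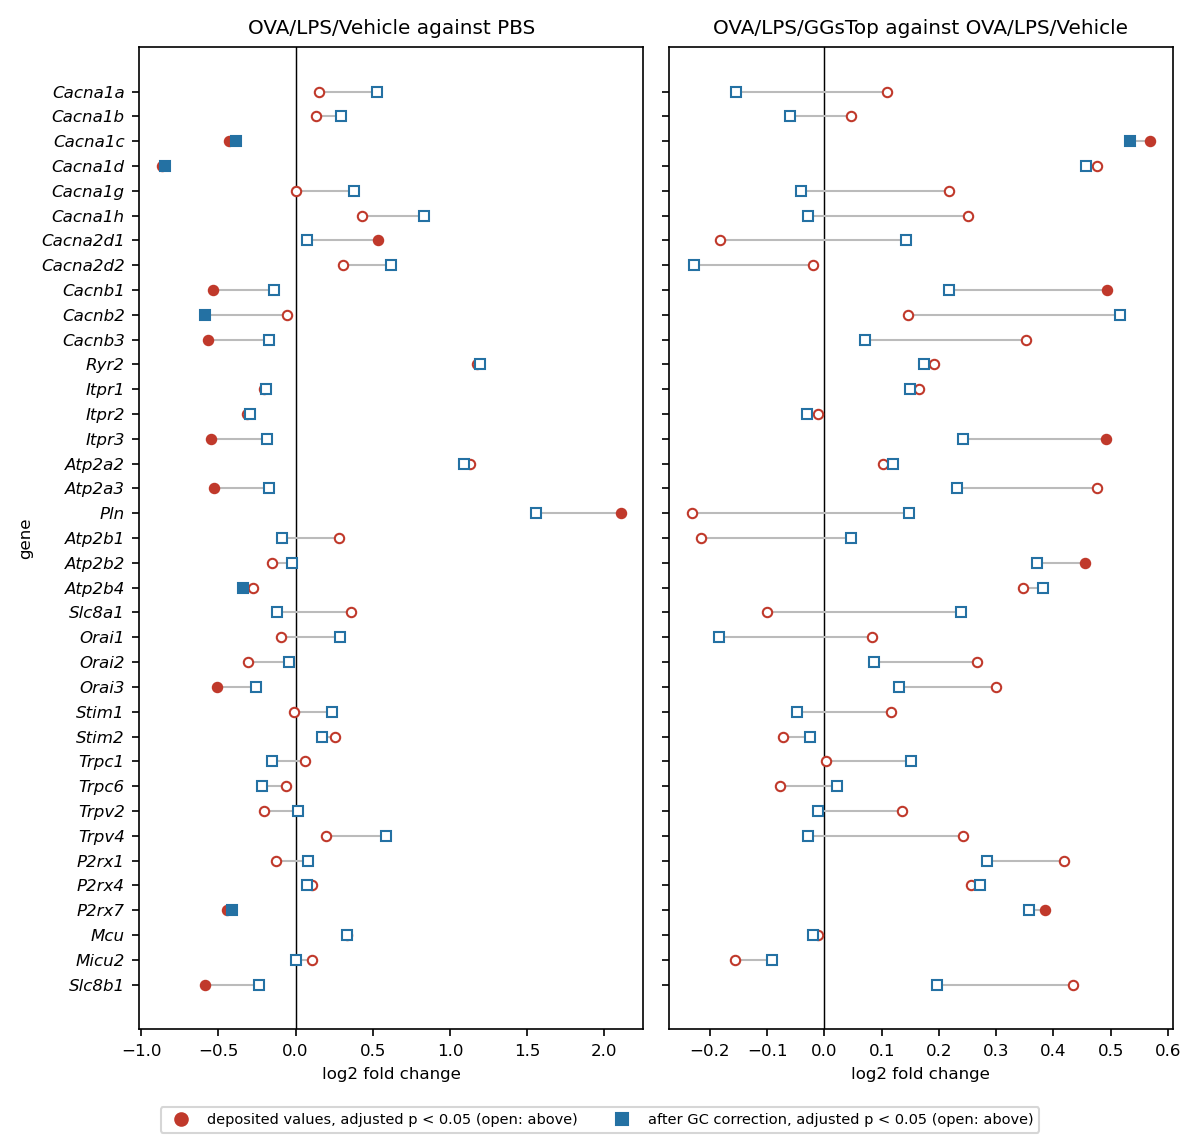
Log2 fold changes of the 37 genes that entered the fit, with the model against PBS on the left and GGsTop against vehicle on the right, on axes of different range; circles stand for the deposited values and squares for values after GC correction, filled at an adjusted p under 0.05. Circle and square lie close together for Cacna1c, Cacna1d and P2rx7 and far apart for Cacnb1, Cacnb3, Cacna2d1 and Pln.

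Cacna1c, which encodes the pore of the L-type channel of heart and smooth muscle (ENSMUSG00000051331, chr6:118587240-119196418 of GRCm38), was the most abundant pore subunit by its mean over the 11 libraries, though below Cacna1d in each PBS library, and was called both in the model and with GGsTop. It measured 5.62, 4.27 and 4.19 FPKM in the PBS libraries, 3.14, 3.27, 2.94 and 3.45 FPKM in the OVA/LPS/Vehicle libraries and 6.12, 4.92, 5.18 and 4.73 FPKM in the OVA/LPS/GGsTop libraries. All vehicle libraries lay below all libraries of both other groups, and the PBS and GGsTop libraries overlapped. The means were 4.69 ± 0.806 FPKM (SD, n = 3), 3.2 ± 0.215 FPKM (SD, n = 4) and 5.24 ± 0.617 FPKM (SD, n = 4). On the log2 scale Cacna1c fell by 0.43 (SE 0.12, limma adjusted p = 0.0161) in the model and rose by 0.57 (SE 0.11, adjusted p = 0.0198) from vehicle to GGsTop. The GC-corrected values were −0.38 (adjusted p = 0.0395) and 0.53 (adjusted p = 0.0401). The first call was lost without PBS 1, with −0.32 (adjusted p = 0.0591). The second was lost without OVA/LPS/Vehicle 34 or 56 and without OVA/LPS/GGsTop 1 or 3, at adjusted p between 0.0524 and 0.074. After the GC correction the first was kept only without PBS 2 and the second only without OVA/LPS/GGsTop 4. The corrected fold change against PBS was −0.26 (adjusted p = 0.145) without PBS 1, and the adjusted p otherwise rose to at most 0.091 in the first and to at most 0.138 in the second comparison.

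Cacna1d (ENSMUSG00000015968, chr14:30039939-30491455), the L-type pore of neuroendocrine and pacemaker cells, measured 5.89, 4.77 and 5.45 FPKM with PBS, 2.29, 2.65, 2.08 and 3.03 FPKM with OVA/LPS/Vehicle and 4.84, 3.29, 4.69 and 2.9 FPKM with OVA/LPS/GGsTop. All vehicle libraries lay below all PBS libraries, whereas OVA/LPS/GGsTop 4 lay within the vehicle range. Its log2 fold change for OVA/LPS/Vehicle against PBS was −0.86 (SE 0.16, adjusted p = 0.00454), the largest decrease of the set in this comparison, and −0.84 (adjusted p = 0.00969) after the GC correction. The call held in 7 of 7 fits that each left out 1 library, on deposited and on corrected values. With GGsTop the fold change was 0.48 (adjusted p = 0.0623) and not called, and without OVA/LPS/GGsTop 4 it was 0.58 (adjusted p = 0.0395).

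P2rx7 (ENSMUSG00000029468, chr5:122643911-122691432), the ATP-gated channel of macrophages and other leukocytes, had the same arrangement of groups as Cacna1c, and their promoters are shown together with that of Cacna1d. It measured 8.22, 6.96 and 8.67 FPKM with PBS, 6.17, 5.64, 4.91 and 5.52 FPKM with OVA/LPS/Vehicle and 7.79, 7.83, 7.5 and 7.11 FPKM with OVA/LPS/GGsTop. All vehicle libraries lay below all PBS and all GGsTop libraries. The fold change was −0.45 (SE 0.10, adjusted p = 0.00858) for OVA/LPS/Vehicle against PBS, called in each of the 7 fits without 1 library, and −0.41 (adjusted p = 0.0147) after the GC correction. The corrected call was lost without PBS 1, with −0.37 (adjusted p = 0.0559), and without PBS 3, with −0.36 (adjusted p = 0.0599). From vehicle to GGsTop it was 0.39 (SE 0.09, adjusted p = 0.0343), and 0.36 (adjusted p = 0.0511) after the correction. This call was lost without OVA/LPS/Vehicle 34, 56 or 78 and without OVA/LPS/GGsTop 1, 2 or 3, at adjusted p between 0.0775 and 0.107. The transcripts of Cacna1c, Cacna1d and P2rx7 have a GC content of 50.3, 49.6 and 50.1%, close to the median of 49.9% over all genes in the fit.

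The promoters of these 3 genes, from RefSeq on GRCm38.p6, are printed 5′ to 3′ on the strand of the gene from 250 bases before to 50 after a start, where several starts are listed the outermost. RefSeq had an entry for 36 of the 43 genes. Capitals mark the letters GGGCGG of a GC box or TATAAA of a TATA box on either strand. The windows are chr6:119196360-119196659 on the minus strand for Cacna1c, chr14:30491107-30491406 on the minus strand for Cacna1d and chr5:122643677-122643976 on the plus strand for P2rx7.
Cacna1c: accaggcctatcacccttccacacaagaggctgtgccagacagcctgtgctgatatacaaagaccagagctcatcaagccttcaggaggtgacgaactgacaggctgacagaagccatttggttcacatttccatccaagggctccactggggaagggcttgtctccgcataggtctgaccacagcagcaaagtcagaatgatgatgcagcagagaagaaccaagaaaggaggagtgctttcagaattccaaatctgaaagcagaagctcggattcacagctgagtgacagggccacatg
Cacna1d: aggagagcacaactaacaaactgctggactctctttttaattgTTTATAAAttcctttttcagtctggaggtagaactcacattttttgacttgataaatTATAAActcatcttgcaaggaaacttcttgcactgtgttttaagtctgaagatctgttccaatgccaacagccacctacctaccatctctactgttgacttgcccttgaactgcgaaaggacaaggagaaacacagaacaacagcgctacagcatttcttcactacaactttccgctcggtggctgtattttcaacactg
P2rx7: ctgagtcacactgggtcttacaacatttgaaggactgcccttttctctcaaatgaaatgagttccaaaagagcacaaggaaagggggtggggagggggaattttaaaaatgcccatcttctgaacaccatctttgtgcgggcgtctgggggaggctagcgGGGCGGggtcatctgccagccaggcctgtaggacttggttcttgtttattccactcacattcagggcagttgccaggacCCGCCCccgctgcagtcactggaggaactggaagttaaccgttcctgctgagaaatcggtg
The window of Cacna1c held none of the motifs searched, which were the E-box CACGTG, the GC box, the TATA box, the GATA motif AGATAA, the MEF2 box and the CArG box. That of Cacna1d held 3 TATA box matches, at −207 and −205, which overlap on opposite strands, and at −150 from the start. That of P2rx7 held GC boxes at −90 and −11. Of 32851 promoters of this length, 35.7% held a GC box, 13.6% a TATA box, 7.15% the E-box, 11.2% the GATA motif, 3.19% a MEF2 box and 1.63% a CArG box. The matches are letters in a window, and their absence says nothing of the factors.

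**Figure D3:**
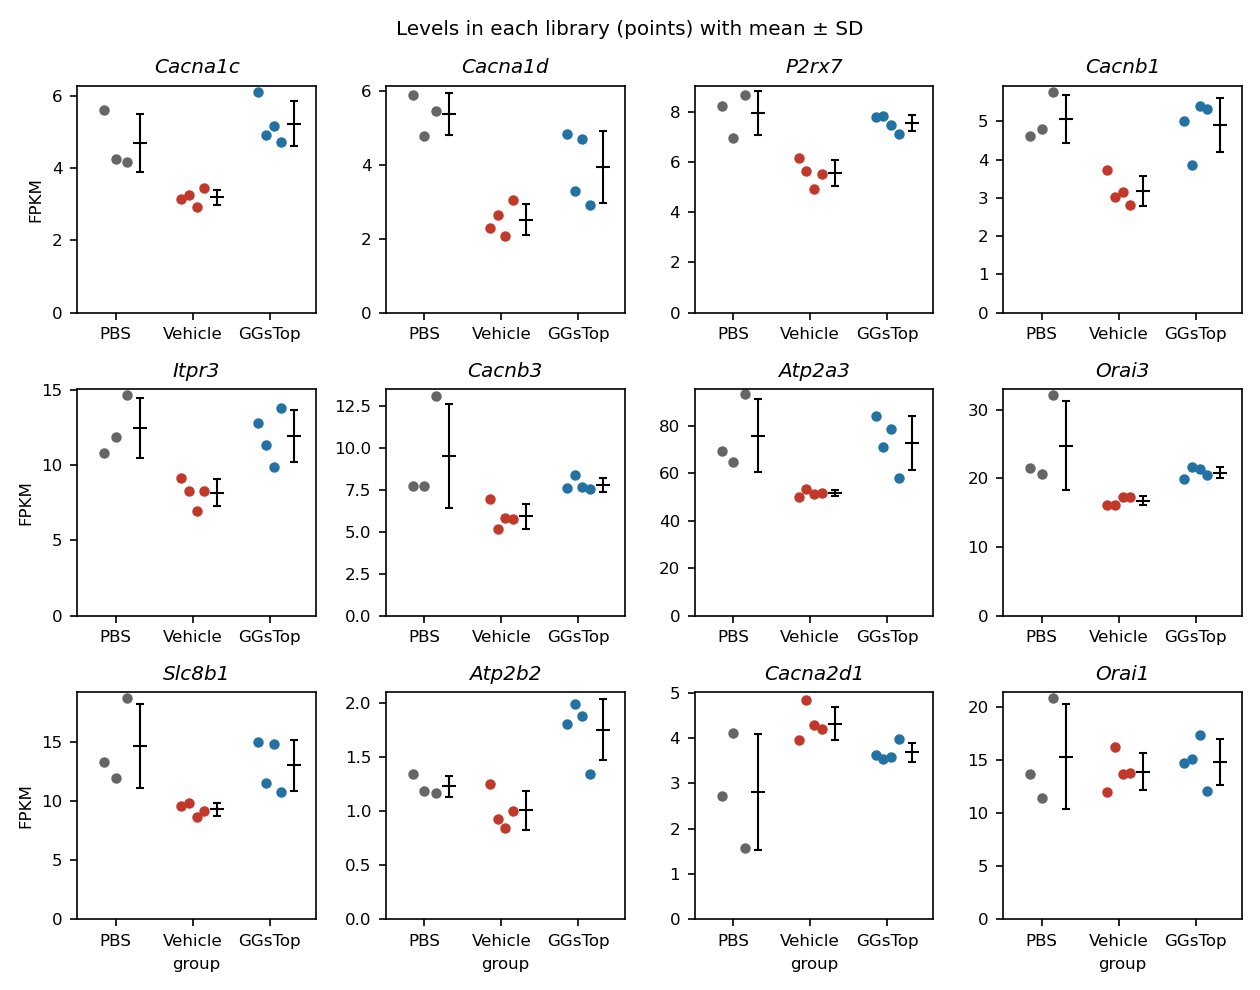
FPKM of 12 genes of the set in each library (points), with the mean and SD of the group beside them; every axis starts at 0. In Cacna1c, P2rx7, Cacnb1, Itpr3, Cacnb3, Atp2a3, Orai3 and Slc8b1 the 4 vehicle points lie below all points of the other groups, and in each of these but Cacna1c the highest point is PBS 3, as it is in Orai1, where the groups overlap.

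The other pore subunits were weakly expressed. Cacna1a and Cacna1b, of the P/Q-type and N-type channels of neurons, and Cacna1g and Cacna1h, of T-type channels, ranged from 0.109 to 2.71 FPKM over the 11 libraries, their groups overlapped in each comparison and none was called with all libraries. Against PBS, Cacna1a and Cacna1h had fold changes of 0.15 (adjusted p = 0.463) and 0.43 (adjusted p = 0.252) in OVA/LPS/Vehicle on the deposited values. After the GC correction these were 0.53 (adjusted p = 0.0669) and 0.83 (adjusted p = 0.0795). Without PBS 2 the corrected values were 0.74 (adjusted p = 0.013) and 1.10 (adjusted p = 0.03) and called. Cacna1b was highest in OVA/LPS/Vehicle 12 with 1.12 FPKM. The summed level of 14 markers of neurons and neuroendocrine cells, with Tubb3 in the lead in that library and Stmn2 over all libraries, was also highest there with 133 FPKM. It was next highest in OVA/LPS/Vehicle 56 with 117 FPKM, of which Calca made up 60.1 FPKM, while Cacna1b measured 0.429 FPKM there, below 0.735, 0.638 and 0.788 FPKM in OVA/LPS/GGsTop 1, 2 and 4. Cacna1h was highest in OVA/LPS/GGsTop 4 with 2.71 FPKM, against 0.748, 1.4 and 0.338 FPKM in the other GGsTop libraries.

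Among the auxiliary subunits, the β subunits, which bring the pore to the membrane, differ widely in GC content. Cacnb3, the most abundant, measured 7.7, 7.71 and 13.1 FPKM with PBS, 6.92, 5.19, 5.79 and 5.76 FPKM with OVA/LPS/Vehicle and 7.59, 8.39, 7.68 and 7.52 FPKM with OVA/LPS/GGsTop. PBS 3 was far above the other PBS libraries, and all vehicle libraries lay below both other groups. Cacnb1 measured 4.6, 4.8 and 5.77 FPKM with PBS, 3.72, 3.03, 3.14 and 2.81 FPKM with OVA/LPS/Vehicle and 5.0, 3.86, 5.4 and 5.33 FPKM with OVA/LPS/GGsTop, with the vehicle libraries again below all others. The fold changes for OVA/LPS/Vehicle against PBS were −0.57 (adjusted p = 0.0192) for Cacnb3 and −0.54 (adjusted p = 0.00973) for Cacnb1. Corrected for GC they were −0.17 (adjusted p = 0.206) and −0.14 (adjusted p = 0.357). Their transcripts hold 61.3 and 59.7% GC. Without PBS 3 the fold change of Cacnb3 was −0.34 (adjusted p = 0.04), and without OVA/LPS/Vehicle 34 its call was lost with −0.52 (adjusted p = 0.0512). With GGsTop, Cacnb1 rose by 0.49 (SE 0.12, adjusted p = 0.0312) on the deposited values, but its fold change after the correction was 0.22 (adjusted p = 0.228), and the call was also lost without OVA/LPS/Vehicle 34, 56 or 78 and without OVA/LPS/GGsTop 1, 3 or 4, at adjusted p between 0.054 and 0.0966.

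Cacnb2, a β subunit of heart and other excitable tissues with a GC content of 39%, measured 1.11, 1.5 and 0.832 FPKM with PBS, 0.995, 1.04, 0.948 and 1.23 FPKM with OVA/LPS/Vehicle and 1.15, 1.41, 1.03 and 1.5 FPKM with OVA/LPS/GGsTop. All 3 groups overlapped, and its fold change for OVA/LPS/Vehicle against PBS was −0.06 (adjusted p = 0.749) on the deposited values and −0.59 (adjusted p = 0.0142) after the GC correction. The corrected call was kept in 6 of 7 fits without 1 library and lost without PBS 3, with −0.51 (adjusted p = 0.0593), while the deposited value turned to 0.06 (adjusted p = 0.728) without PBS 2. Cacna2d1, the α2δ subunit bound by gabapentin, measured 2.73, 4.12 and 1.58 FPKM with PBS, 3.96, 4.85, 4.28 and 4.21 FPKM with OVA/LPS/Vehicle and 3.62, 3.54, 3.59 and 3.99 FPKM with OVA/LPS/GGsTop. PBS 2 lay within the vehicle range and PBS 3 was the lowest of all libraries. Its fold change for OVA/LPS/Vehicle against PBS was 0.54 (SE 0.18, adjusted p = 0.0387) and 0.07 (adjusted p = 0.677) after the GC correction. The call was kept without PBS 2 and was lost without any 1 of the other 6 libraries, at 0.28 (adjusted p = 0.132) without PBS 3 and at adjusted p between 0.0529 and 0.089 without each of the rest. Cacna2d2 ranged from 0.0585 to 1.38 FPKM. With all libraries its fold change for OVA/LPS/Vehicle against PBS was 0.31 (adjusted p = 0.455) on the deposited values. After the GC correction it was 0.62 (adjusted p = 0.204). Cacna2d2 was called only in this comparison on corrected values without PBS 2, at an adjusted p of 0.0359.

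Among the release channels, Itpr3, the inositol trisphosphate receptor of epithelia, was the most abundant. It measured 10.8, 11.8 and 14.6 FPKM with PBS, 9.13, 8.3, 6.96 and 8.27 FPKM with OVA/LPS/Vehicle and 12.8, 11.3, 9.87 and 13.8 FPKM with OVA/LPS/GGsTop. All vehicle libraries lay below all others. The fold change was −0.55 (SE 0.14, adjusted p = 0.0123) for OVA/LPS/Vehicle against PBS and 0.49 (SE 0.13, adjusted p = 0.0396) with GGsTop. Corrected for GC it was −0.18 (adjusted p = 0.244) and 0.24 (adjusted p = 0.19), and the transcript holds 57.5% GC. The first call was kept in 7 of 7 fits without 1 library, and the second only without OVA/LPS/Vehicle 12, where the adjusted p was 0.0499. Without each of the other libraries of that comparison it lay between 0.0537 and 0.12. Itpr1 and Itpr2, the other receptors of the family, ranged from 6.81 to 10.5 FPKM and from 3.87 to 6.38 FPKM. Neither was called with all libraries, but Itpr2 was called lower in OVA/LPS/Vehicle than in PBS without OVA/LPS/Vehicle 12, with −0.40 (adjusted p = 0.0205). For Itpr1 all vehicle libraries lay below all PBS libraries, and all GGsTop libraries lay below all PBS libraries for Itpr2. Groups did not overlap in 11 genes lower and 2 higher for OVA/LPS/Vehicle against PBS, where 25.4 and 18.7% of all genes did so, and in 1 lower and 2 higher for OVA/LPS/GGsTop against PBS, where 7.54 and 7.22% did so.

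Among the pumps, Atp2a3, the reticulum pump of epithelia, endothelium and leukocytes, measured 69.5, 64.7 and 93.4 FPKM with PBS, 50.2, 53.5, 51.2 and 51.8 FPKM with OVA/LPS/Vehicle and 84, 71, 78.9 and 58 FPKM with OVA/LPS/GGsTop. The vehicle libraries lay within 50.2 to 53.5 FPKM, below all others. Its fold change for OVA/LPS/Vehicle against PBS was −0.53 (SE 0.15, adjusted p = 0.0194), −0.17 (adjusted p = 0.311) after the GC correction and −0.37 (adjusted p = 0.0703) without PBS 3. With GGsTop it was called only without OVA/LPS/GGsTop 4, with 0.58 (adjusted p = 0.0331). The plasma membrane pump Atp2b2, known from hair cells and neurons, measured 1.34, 1.18 and 1.16 FPKM with PBS, 1.25, 0.928, 0.841 and 0.996 FPKM with OVA/LPS/Vehicle and 1.8, 1.99, 1.87 and 1.34 FPKM with OVA/LPS/GGsTop. All GGsTop libraries lay above both other groups, OVA/LPS/GGsTop 4 only just above PBS 1 with 1.345 against 1.337 FPKM. Atp2b2 rose with GGsTop by 0.46 (SE 0.11, adjusted p = 0.0328), or 0.37 (adjusted p = 0.0891) after the GC correction. The call was lost without OVA/LPS/Vehicle 34, 56 or 78 and without OVA/LPS/GGsTop 1, 2 or 3, at adjusted p between 0.0758 and 0.106.

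Atp2b4, the plasma membrane pump of smooth muscle and red cells, measured 7.77, 8.01 and 6.42 FPKM with PBS, 6.41, 6.27, 5.3 and 5.77 FPKM with OVA/LPS/Vehicle and 7.32, 7.49, 7.07 and 9.53 FPKM with OVA/LPS/GGsTop. The vehicle libraries lay below both other groups, by as little as 6.41 against 6.42 FPKM. Its fold change for OVA/LPS/Vehicle against PBS was −0.27 (adjusted p = 0.0883) on the deposited values and −0.34 (adjusted p = 0.0442) after the GC correction, and the corrected call was lost in 6 of 7 fits without 1 library, at adjusted p between 0.0679 and 0.129, and kept only without OVA/LPS/Vehicle 12. The widespread plasma membrane pump Atp2b1 ranged from 9.19 to 15.4 FPKM, its groups overlapped and it was called only without PBS 1, higher in OVA/LPS/Vehicle than in PBS with 0.43 (adjusted p = 0.0438).

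Atp2a2, Ryr2, Pln and Slc8a1 are the calcium handling genes of heart muscle: the reticulum pump, the release channel, the small protein phospholamban that restrains the pump, and the sodium/calcium exchanger. Ryr2 and Slc8a1 were singled out after their values were seen. Atp2a2 (ENSMUSG00000029467, chr5:122453513-122502225) measured 47.3, 262 and 51.1 FPKM with PBS, 198, 155, 207 and 205 FPKM with OVA/LPS/Vehicle and 157, 272, 115 and 353 FPKM with OVA/LPS/GGsTop. PBS 1 and PBS 3 were the lowest libraries, PBS 2 was above all vehicle libraries, and the GGsTop libraries spread on both sides of them. Ryr2 (ENSMUSG00000021313, chr13:11553102-12106945) measured 0.429, 7.12 and 0.522 FPKM with PBS, 5.92, 3.72, 4.89 and 5.21 FPKM with OVA/LPS/Vehicle and 3.92, 8.56, 2.62 and 10.9 FPKM with OVA/LPS/GGsTop, with the same libraries low and high. Pln (ENSMUSG00000038583, chr10:53337667-53345987) measured 0.0722, 5.4 and 0.0584 FPKM with PBS, 6.5, 5.85, 10.8 and 6.96 FPKM with OVA/LPS/Vehicle and 5.2, 10.5, 1.98 and 11 FPKM with OVA/LPS/GGsTop, and its PBS values rest on 3, 231 and 3 fragments. All vehicle libraries lay above all PBS libraries for Pln alone, and only just above PBS 2. Slc8a1 measured 2.37, 4.01 and 1.7 FPKM with PBS, 3.68, 3.45, 3.71 and 3.54 FPKM with OVA/LPS/Vehicle and 2.63, 4.19, 2.25 and 4.49 FPKM with OVA/LPS/GGsTop, and its PBS and GGsTop libraries spread on both sides of the vehicle libraries.

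The fold change of Pln for OVA/LPS/Vehicle against PBS was 2.10 (SE 0.62, adjusted p = 0.0229), the only call among these genes, and 1.56 (adjusted p = 0.0866) after the GC correction. That call was also lost without OVA/LPS/Vehicle 56, with 1.94 (adjusted p = 0.0587), without PBS 1, with 1.68 (adjusted p = 0.0838), and without PBS 3, with 1.67 (adjusted p = 0.113). The fold changes of Atp2a2, Ryr2 and Slc8a1 were 1.13 (adjusted p = 0.116), 1.17 (adjusted p = 0.118) and 0.36 (adjusted p = 0.208). That of Slc8a1 was −0.12 (adjusted p = 0.686) after the GC correction. Without PBS 2 the fold changes were 2.97 (adjusted p = 0.00144) for Pln, 1.93 (adjusted p = 0.00272) for Atp2a2, 1.99 (adjusted p = 0.00334) for Ryr2 and 0.61 (adjusted p = 0.0332) for Slc8a1. Against PBS the GGsTop libraries had fold changes of 1.87 (adjusted p = 0.128), 1.23 (adjusted p = 0.226) and 1.36 (adjusted p = 0.206) for Pln, Atp2a2 and Ryr2. Without PBS 2 these were 2.74 (adjusted p = 0.00886), 2.03 (adjusted p = 0.00983) and 2.19 (adjusted p = 0.0101). From vehicle to GGsTop they were −0.23, 0.10 and 0.19, and none was called. The value for Pln turned to 0.15 after the GC correction, and those for Atp2a2 and Ryr2 turned to −0.16 and −0.08 without OVA/LPS/GGsTop 4.

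Markers of cardiac muscle moved with these genes. The summed level of the 14 markers was 98.9, 2074 and 148 FPKM with PBS, 1411, 1035, 1673 and 1525 FPKM with OVA/LPS/Vehicle and 1032, 2411, 651 and 2758 FPKM with OVA/LPS/GGsTop. The order of the libraries by this sum followed that by Atp2a2 closely, with PBS 1 and PBS 3 at the bottom and OVA/LPS/GGsTop 2 and 4 at the top. Its most abundant gene over all libraries was Myl7, the light chain of atrial muscle, at 1.01 to 1081 FPKM, whereas Myl2, the light chain of the ventricle, stayed between 0 and 0.184 FPKM. Myl2, Nppb and Nkx2-5 were listed at 0 in at least 1 library. On the deposited values 6 of the 13 markers in the fit were called higher in OVA/LPS/Vehicle than in PBS, where 15.9% of all genes were. None was called in the other comparisons. The part of cardiac muscle in the values of the 4 genes was not tested.

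**Figure D4:**
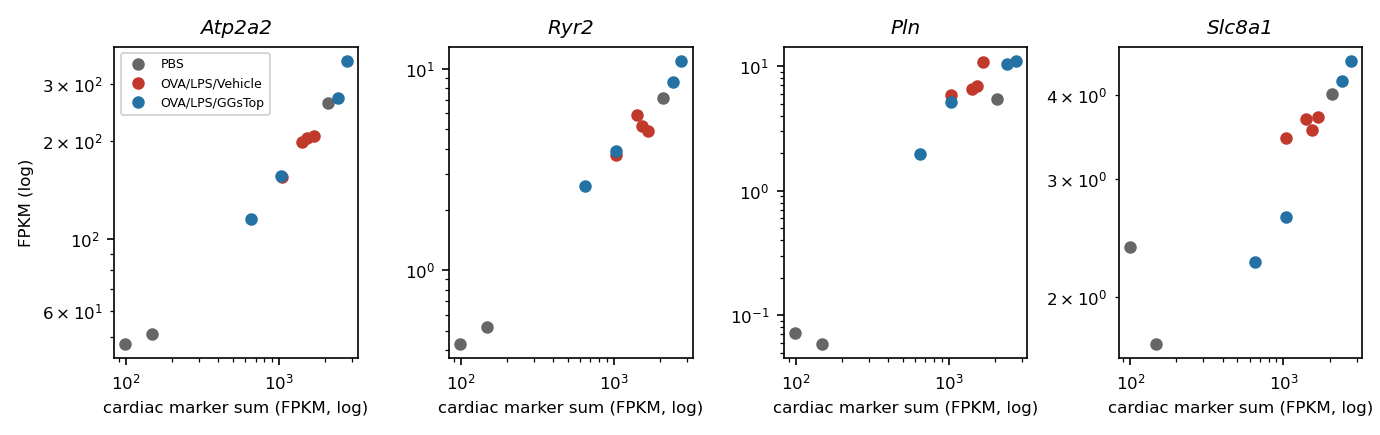
FPKM of Atp2a2, Ryr2, Pln and Slc8a1 against the summed FPKM of 14 markers of cardiac muscle in the 11 libraries, both on log axes; each point is a library, coloured by group. In each panel PBS 1 and PBS 3 lie at the lower left, apart from PBS 2, and OVA/LPS/GGsTop 2 and 4 lie at the upper right.

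The promoters of Pln and Ryr2 are shown because these genes moved together. They are chr10:53337436-53337735 on the plus strand and chr13:12106896-12107195 on the minus strand of GRCm38.p6. Capitals mark a TATA box and a GATA motif in Pln and overlapping GC boxes in Ryr2, each on either strand.
Pln: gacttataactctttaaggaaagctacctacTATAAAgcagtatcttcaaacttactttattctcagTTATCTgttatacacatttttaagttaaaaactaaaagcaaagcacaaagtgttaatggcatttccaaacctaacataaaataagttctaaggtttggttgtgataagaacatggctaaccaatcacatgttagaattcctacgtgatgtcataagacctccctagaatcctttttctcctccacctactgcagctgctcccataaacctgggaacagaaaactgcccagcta
Ryr2: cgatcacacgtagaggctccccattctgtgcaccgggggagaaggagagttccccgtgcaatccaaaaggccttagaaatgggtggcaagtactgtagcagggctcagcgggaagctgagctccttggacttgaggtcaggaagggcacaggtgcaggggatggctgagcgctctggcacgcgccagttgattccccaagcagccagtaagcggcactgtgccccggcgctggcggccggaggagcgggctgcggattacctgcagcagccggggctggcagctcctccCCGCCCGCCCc
The match to a TATA box in Pln lay at −219 and that to a GATA motif at −183, the latter on the opposite strand, and the GC boxes of Ryr2 lay at 40 and 44, counted from 1 at the start. The window of Pln holds 36% GC and that of Ryr2 65.3%, against a median of 52.7% over all promoters. Neither window held a MEF2 box, a CArG box or the E-box.

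Among the genes of store-operated entry, Orai3 was the most abundant channel. It measured 21.5, 20.7 and 32.2 FPKM with PBS, 16.2, 16.2, 17.3 and 17.3 FPKM with OVA/LPS/Vehicle and 19.9, 21.7, 21.3 and 20.5 FPKM with OVA/LPS/GGsTop. PBS 3 was far above the rest, and the vehicle libraries lay below all others. The fold change for OVA/LPS/Vehicle against PBS was −0.51 (SE 0.13, adjusted p = 0.0148), −0.26 (adjusted p = 0.0658) after the GC correction and −0.31 (adjusted p = 0.0167) without PBS 3. The corrected value was called without PBS 2, with −0.32 (adjusted p = 0.0333). It was not called with GGsTop, at 0.30 (adjusted p = 0.132).

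Orai1, the channel of the calcium release-activated current of T cells and mast cells, measured 13.7, 11.4 and 20.8 FPKM with PBS, 11.9, 16.3, 13.6 and 13.8 FPKM with OVA/LPS/Vehicle and 14.7, 15.1, 17.4 and 12 FPKM with OVA/LPS/GGsTop. Apart from PBS 3, all libraries of the 3 groups lay within 11.4 to 17.4 FPKM, and Orai1 was not called in any comparison. Stim1, the sensor of the reticulum, measured 7.05, 7.63 and 8.21 FPKM with PBS, 8.7, 7.59, 6.94 and 7.07 FPKM with OVA/LPS/Vehicle and 7.59, 7.74, 7.55 and 10.5 FPKM with OVA/LPS/GGsTop. The groups overlapped, OVA/LPS/GGsTop 4 was the highest library, and Stim1 was not called either. The fold changes of Orai1 and Stim1 were −0.10 and −0.01 for OVA/LPS/Vehicle against PBS and 0.08 and 0.12 with GGsTop, with SE of 0.18 and 0.12 in the first comparison. All these directions turned with the GC correction, to 0.29 (adjusted p = 0.161) and 0.23 (adjusted p = 0.138) against PBS and to −0.18 (adjusted p = 0.436) and −0.05 (adjusted p = 0.812) with GGsTop. Orai2 and the second sensor Stim2 ranged from 4.5 to 7.46 FPKM and from 13.1 to 19.6 FPKM, with overlapping groups. Neither was called with all libraries, and Orai2 was called lower in OVA/LPS/Vehicle than in PBS without OVA/LPS/Vehicle 12, with −0.42 (adjusted p = 0.017).

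None of the TRP channels was called with all libraries. Trpv2, the most abundant, measured 5.79, 6.26 and 7.43 FPKM with PBS, 7.58, 5.16, 4.73 and 4.76 FPKM with OVA/LPS/Vehicle and 5.45, 6.65, 7.05 and 5.41 FPKM with OVA/LPS/GGsTop, and its groups overlapped. Trpc1 ranged from 1.75 to 2.45 FPKM, Trpc6, a channel of smooth muscle opened by diacylglycerol, from 2.48 to 6.46 FPKM and Trpv4, a channel of epithelia opened by swelling and warmth, from 0.684 to 4.01 FPKM. Trpc6 was lowest and Trpv4 highest in OVA/LPS/GGsTop 4. For OVA/LPS/Vehicle against PBS the fold change of Trpv4 was 0.20 (adjusted p = 0.503) on the deposited values and 0.59 (adjusted p = 0.185) after the GC correction. Without PBS 2 the corrected value was 0.95 (adjusted p = 0.0269) and called. Among the other P2X receptors, P2rx4 was the more abundant and measured 14.4, 15.7 and 17 FPKM with PBS, 16.2, 18, 15.3 and 18.7 FPKM with OVA/LPS/Vehicle and 20.1, 22, 15.9 and 25.2 FPKM with OVA/LPS/GGsTop. PBS and vehicle libraries overlapped, and 3 of the 4 GGsTop libraries lay above all others. P2rx1 of platelets and smooth muscle ranged from 1.7 to 5.92 FPKM. Neither was called with all libraries.

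In the mitochondria, Slc8b1, which exchanges calcium out for sodium, measured 13.3, 12 and 18.7 FPKM with PBS, 9.57, 9.79, 8.6 and 9.19 FPKM with OVA/LPS/Vehicle and 15, 11.5, 14.8 and 10.8 FPKM with OVA/LPS/GGsTop. The vehicle libraries lay below all others and PBS 3 was the highest. The fold change for OVA/LPS/Vehicle against PBS was −0.58 (SE 0.16, adjusted p = 0.0152), −0.24 (adjusted p = 0.163) after the GC correction and −0.41 (adjusted p = 0.0542) without PBS 3. Micu2, a regulatory subunit of the mitochondrial uniporter, was the most abundant gene of this group and measured 20, 22.6 and 15.8 FPKM with PBS, 19.6, 20.4, 21.1 and 22.2 FPKM with OVA/LPS/Vehicle and 18.8, 20.6, 14.3 and 21.4 FPKM with OVA/LPS/GGsTop, with overlapping groups. The pore of the uniporter, Mcu, ranged from 2.83 to 4.23 FPKM with PBS, from 4.56 to 5.49 FPKM with OVA/LPS/Vehicle and from 4.49 to 5.71 FPKM with OVA/LPS/GGsTop. All PBS libraries lay below all libraries of both other groups, but Mcu was not called in any comparison with all libraries. For OVA/LPS/Vehicle against PBS its fold change was 0.33 (adjusted p = 0.0619), or 0.33 (adjusted p = 0.0713) after the GC correction, and without PBS 2 it was called on both, with 0.41 (adjusted p = 0.0383) and 0.41 (adjusted p = 0.0478).

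For the 6 genes too weak for the fit, group means of log2(FPKM + 1) were set against all arrangements of the libraries in exact permutation tests, two-sided, whose smallest possible p is 0.0286. None was called after adjustment over the 18 tests, of which at least 11 would have had to stand at that p together for any call. Casr, the calcium-sensing receptor of the parathyroid, measured 0, 0.0547 and 0.0228 FPKM with PBS, 0.0273, 0.201, 0.279 and 0.0254 FPKM with OVA/LPS/Vehicle and 0.0704, 0.0292, 0.0269 and 0 FPKM with OVA/LPS/GGsTop, which rest on 0 to 21 fragments. It was highest in OVA/LPS/Vehicle 34 and 56. The summed level of the parathyroid markers Pth and Gcm2 was 6.0, 91.9, 224 and 0 FPKM in the OVA/LPS/Vehicle libraries and at most 0.468 FPKM in all others, with Pth, the most abundant, and Gcm2 listed at 0 in part of the libraries, and its part in the level of Casr was not tested. Cacnb4 reached the smallest p of 0.0286 for OVA/LPS/Vehicle against PBS, with 0.28 to 0.424 FPKM against 0.0659 to 0.273 FPKM, and its adjusted p was 0.514. Ryr1, the release channel of skeletal muscle, was highest in OVA/LPS/Vehicle 34 with 0.377 FPKM, where the summed level of 14 markers of skeletal muscle was also highest with 167 FPKM, Acta1 in the lead with 58 FPKM, whereas Ckm led over all libraries. Ryr3 ranged from 0.126 to 0.928 FPKM, Cacna2d3 from 0.0431 to 0.54 FPKM and Trpc4 from 0 to 0.0841 FPKM.

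Among the 9 genes called lower in OVA/LPS/Vehicle than in PBS, the 3 that were also called after the GC correction, Cacna1c, Cacna1d and P2rx7, had a GC content of 49.6 to 50.3%, and the other 6 had 54.6 to 61.3%. The 9 genes had a median of 56.9% GC and the 2 called higher 39.6%, against 50.3% over the 37 genes in the fit. The 5 genes called after the correction had a median of 49.6%. The calls of cell type markers that follow are on the deposited values, without the GC correction and with all libraries. There, 22.1% of all genes were called lower and 15.9% higher in OVA/LPS/Vehicle than in PBS. With GGsTop against vehicle these shares were 1.81 and 6.9%. Among cell types, 6 of 8 endothelial markers were called lower in OVA/LPS/Vehicle than in PBS, and their summed level, with Cldn5 the most abundant and none at 0, was 1682, 1134 and 2218 FPKM with PBS, 812, 949, 969.8 and 796 FPKM with OVA/LPS/Vehicle and 1296, 981, 1363 and 596 FPKM with OVA/LPS/GGsTop. Of 11 smooth muscle markers, with Acta2 the most abundant and none at 0, 10 were in the fit, of which 2 were called lower in that comparison and 1 higher with GGsTop. Their sum was 682, 889 and 721 FPKM with PBS, 548, 605, 551 and 565 FPKM with OVA/LPS/Vehicle and 716, 719.8, 557 and 1281 FPKM with OVA/LPS/GGsTop. Of 8 alveolar markers, 3 were called lower in OVA/LPS/Vehicle than in PBS, with sums of 11807, 10516 and 16850 FPKM, 5498, 8321, 6529 and 9031 FPKM and 7884, 9741, 12318 and 4863 FPKM in the 3 groups, Sftpc in the lead and none at 0. Of 9 macrophage markers, with C1qa the most abundant over all libraries and none at 0, Csf1r and Siglec1 were called lower and C1qa higher in OVA/LPS/Vehicle than in PBS, and Csf1r was called higher with GGsTop. Their sum was 137, 177 and 203 FPKM with PBS, 210, 173, 136 and 264 FPKM with OVA/LPS/Vehicle and 193, 280, 200 and 256 FPKM with OVA/LPS/GGsTop. Csf1r, the receptor of a macrophage growth factor, measured 23, 23.9 and 31.6 FPKM with PBS, 18.7, 16.5, 12.4 and 20.1 FPKM with OVA/LPS/Vehicle and 25.1, 28.5, 26.9 and 23.4 FPKM with OVA/LPS/GGsTop. All its vehicle libraries lay below all others, as for P2rx7, whereas the sums of the 3 groups overlapped. Of 11 airway epithelial markers Epcam, Foxj1 of ciliated cells and Scgb3a2 of club cells were called higher in OVA/LPS/Vehicle than in PBS and none lower, with log2 fold changes of 0.60, 1.41 and 1.85, and with sums of 33138, 30877 and 38583 FPKM with PBS, 35269, 53859, 48627 and 49025 FPKM with OVA/LPS/Vehicle and 43908, 42289, 48154 and 46452 FPKM with OVA/LPS/GGsTop, none at 0. Of the 14 neuronal and neuroendocrine markers 11 were in the fit, of which Chga and Scg2 were called higher with 2.30 and 1.65, and Scg2 lower with GGsTop with −1.50, while Snap25, Tubb3, Th, Dbh and Chat were listed at 0 in at least 1 library. Their sums were 16.3, 26.7 and 16.2 FPKM with PBS, 133, 47.2, 117 and 22.9 FPKM with OVA/LPS/Vehicle and 15.9, 30.9, 17.8 and 28.5 FPKM with OVA/LPS/GGsTop. Among 6 fibroblast markers, Col3a1 the most abundant and none at 0, Pdgfra and Col1a1 were called lower with −0.68 and −0.94, with sums of 232, 369 and 253 FPKM with PBS, 264, 285, 204 and 347 FPKM with OVA/LPS/Vehicle and 213, 291, 255 and 414 FPKM with OVA/LPS/GGsTop. The sums of fibroblast markers overlapped between all groups, and those of the neuronal list between OVA/LPS/Vehicle and both other groups. The part of these cell types in the fold changes of Cacna1c, Cacna1d, P2rx7 and the other called genes was not tested.

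Other genes of calcium signalling, taken from a list by role, were in the table in 93 cases, of which 69 entered the fit. In OVA/LPS/Vehicle 14 of them were called lower and 9 higher than in PBS, or 20.3 and 13% where 22.1 and 15.9% of all genes were. On corrected values 8 and 1 were called, or 11.6 and 1.45% where 13.3 and 8.13% of all genes were. The smallest p among the lower genes belonged to Slc24a4, a sodium/calcium/potassium exchanger, Itprip, which binds the inositol trisphosphate receptor, and Rem1, a small GTPase that inhibits voltage-gated channels. Slc24a4 measured 6.11, 5.48 and 7.42 FPKM with PBS, 2.64, 3.22, 3.11 and 3.23 FPKM with OVA/LPS/Vehicle and 5.76, 4.4, 5.34 and 4.51 FPKM with OVA/LPS/GGsTop. All vehicle libraries lay below all others. Its fold change was −0.85 (SE 0.12, adjusted p = 0.00337) against PBS and 0.56 (SE 0.11, adjusted p = 0.0219) with GGsTop, and −0.72 (adjusted p = 0.00683) and 0.48 (adjusted p = 0.0448) after the GC correction. Itprip fell by 0.87 and Rem1 by 0.95 on the log2 scale. The smallest p among the higher genes belonged to the calcineurin subunits Ppp3cb and Ppp3r1, with 0.75 (adjusted p = 0.00959) and 0.84 (adjusted p = 0.00995), and to triadin of the cardiac and skeletal release complex, Trdn, with 1.63 (adjusted p = 0.0113). After the GC correction these were 0.25 (adjusted p = 0.0716), 0.41 (adjusted p = 0.0357) and 1.03 (adjusted p = 0.0768).

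With GGsTop 3 of the 69 genes, or 4.35%, were called higher than with vehicle, where 6.9% of all genes were. None was called lower by limma, where 1.81% of all genes were, with 8 lower at an unadjusted p under 0.05. Those called higher were Slc24a4, the calcium-activated cation channel Trpm4 with 0.52 (adjusted p = 0.0411) and the G protein subunit Gna11, which couples receptors to phospholipase C, with 0.46 (adjusted p = 0.0492). On corrected values Trpm4 and Gna11 stood at 0.28 (adjusted p = 0.155) and 0.22 (adjusted p = 0.137), and Slc24a4 alone was called. Between OVA/LPS/GGsTop and PBS none of the 69 was called by limma, with 8 lower and 10 higher at an unadjusted p under 0.05. Voom on recovered fragments, which held 68 of them, also called none. By role, for OVA/LPS/Vehicle against PBS on the deposited values, the calls fell on 4 lower genes among 8 partners of the calcium-sensing receptor, 3 lower and 2 higher among 11 of store-operated entry, 1 lower and 3 higher among 14 of the release channels, 1 lower and 2 higher among 11 of the pumps and exchangers, 2 lower among 7 TRP channels, 2 lower among 5 auxiliary subunits, 2 higher among 9 mitochondrial genes, 1 lower pore subunit and none among 3 P2X receptors. On corrected values the calls were 1 lower gene among the partners of the calcium-sensing receptor, 3 lower and 1 higher of store-operated entry, and 1 lower each of the release channels, the pumps and exchangers, the TRP channels and the auxiliary subunits, with none called in the other roles. Of all genes, 22.1% were called lower and 15.9% higher in this comparison on the deposited values, and 13.3 and 8.13% on corrected values.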

How the data were processed

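The 11 RNA-seq libraries of airway were grouped by their labels. The authors deposited FPKM per gene and library. The submitters' processing notes name cutadapt 1.15, HISAT2 2.0.5, HTSeq 0.9.1 and the build mm39. The table gives no coordinates; symbols, GC content and coordinates came from GENCODE M21 on GRCm38 and promoters from RefSeq. Of 21899 identifiers 21795 matched a symbol, and of 26 symbols shared by several identifiers the most abundant kept it. The product of FPKM and exon length gave whole fragments (tolerance 0.02) in every library for 97.8% of the genes.

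Genes averaging 0.5 FPKM or more over all libraries were fitted as log2(FPKM + 1) in limma 3.58.1 (R 4.3.3) with all 11 libraries and a mean-variance trend. Two-sided p-values received the Benjamini-Hochberg adjustment over the 14004 genes tested. The code was tested on simulated data. The GC correction subtracted, in each library, a natural spline (5 degrees of freedom) of the deviations from the gene means on transcript GC content. Genes under the filter were compared by exact permutation tests, whose precision the few libraries limit.

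The members, the lists and the alternatives were chosen with earlier results of these data known, apart from the fits that leave out 1 library after the GC correction and those with OVA/LPS/Vehicle 78 as the one vehicle library, which were added after the data were seen. Genes described library by library are those called in any comparison on deposited or corrected values, the most abundant of each role, Orai1 and Stim1, with Ryr2 and Slc8a1 added after their values were seen. Of the other calcium genes, up to 3 called genes by smallest p in each comparison and direction were named. Deviations from the group means correlated by 0.367, 0.427 and 0.428 between same-numbered PBS and OVA/LPS/GGsTop libraries across genes, so the numbers were treated as pairs in an alternative, although the differently numbered PBS 1 and OVA/LPS/GGsTop 3 correlated by 0.457 and PBS 3 and OVA/LPS/GGsTop 1 by 0.223. The labels do not say what the numbers share.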

Additional observations from a re-analysis of the deposited data

Results flagged for a closer look

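In 86 sets of 4 libraries, 43 genes in each OVA/LPS group, 4 held a library far from the rest by Dixon's criterion on the log2(FPKM + 1) scale; chance gives about 1 in 20. Ryr1 was 0.377 FPKM in OVA/LPS/Vehicle 34, against 0.0712 to 0.0948 FPKM in the other vehicle libraries. Atp2a2 was 155 FPKM in the same library, against 198 to 207 FPKM. Stim1 was 10.5 FPKM in OVA/LPS/GGsTop 4, against 7.55 to 7.74 FPKM in the other GGsTop libraries. Trpc4 was 0.0841 FPKM in OVA/LPS/GGsTop 4, from 10 fragments, against 0 to 0.00789 FPKM.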

How the results depend on the processing

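The number of genes of the set called between OVA/LPS/Vehicle and PBS was 11 and moved to 21 with array weights, 56.8% of the set where 56.5% of all genes were called, and to 5 after the GC correction. Between OVA/LPS/GGsTop and OVA/LPS/Vehicle it was 5 and moved to 12 with array weights, 32.4% where 37.2% of all genes were called, 10 with only the 2 groups compared, 27% where 25.2% were, 10 at a common FPKM total, 2 at a common median and 1 after the GC correction. Between OVA/LPS/GGsTop and PBS it was 0 and moved to 7 with array weights, 18.9% where 18.3% of all genes were called. It stayed within 1.5 times with a pseudocount of 0.1, a minimum of 1 FPKM, no filter, no mean-variance trend and voom on recovered fragments, which called 5386, 1111 and 323 of all genes. The voom fit held 34 genes of the set and left out Cacna1a, Cacna1c and Cacna1d, so it says nothing of these. With 1 library left out in turn, the counts ranged from 7 to 15, from 0 to 5 and from 0 to 4 in the 3 comparisons, and after the GC correction from 1 to 13, from 0 to 3 and from 0 to 4, against 5, 1 and 0 with all libraries. All genes called after the correction ranged in the same fits from 5.26 to 29.2%, from 0.0643 to 3.66% and from 0.371 to 10.4%. For OVA/LPS/Vehicle against PBS the lowest counts came without PBS 3 and the highest without PBS 2, where 35.1% of the set and 29.2% of all genes were called after the correction.

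Called genes among all genes numbered 5327 between OVA/LPS/Vehicle and PBS, with 7916 under array weights and 3007 after the GC correction. Between OVA/LPS/GGsTop and OVA/LPS/Vehicle there were 1220, with 5214 under array weights, 311 after the GC correction, 3525 with only the 2 groups compared, 2181 at a common FPKM total and 698 at a common median. Between OVA/LPS/GGsTop and PBS there were 403, with 2557 under array weights, 609 after the GC correction, 208 without a filter and 39 with only the 2 groups compared. With the replicate number as a block in that comparison, 95 of all genes and 0 of the set were called, and 407 and 0 with the block and the GC correction together. Without 1 library, all genes called ranged from 3064 to 6440, from 24 to 1052 and from 29 to 1597.

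Of the 37 fold changes of the set, 8, 13 and 9 changed sign with the GC correction in the 3 comparisons, none of them called on deposited or corrected values. Among the fold changes given in the text, the sign reversed for Cacnb2 in OVA/LPS/Vehicle against PBS without PBS 2, to 0.060 in a range of −0.165 to 0.060 over the fits without 1 library, for Slc8a1 in that comparison after the GC correction, to −0.12, and for Slc8a1 in OVA/LPS/GGsTop against PBS with the replicate block and the GC correction, to −0.0149. For OVA/LPS/Vehicle against PBS, Orai1 reversed to 0.058 with array weights, 0.29 after the GC correction and 0.14 without PBS 3, in a range of −0.27 to 0.14 without 1 library. Stim1 reversed to 0.040 with array weights, 0.23 after the correction and 0.024, 0.016 and 0.036 without OVA/LPS/Vehicle 56, OVA/LPS/Vehicle 78 or PBS 3, in a range of −0.073 to 0.036. With GGsTop against vehicle, the GC correction reversed Orai1 to −0.18, Stim1 to −0.049 and Pln to 0.15, and array weights reversed Atp2a2 to −0.043. Without 1 library Pln ranged from −0.48 to 0.19, reversed without OVA/LPS/GGsTop 3, Atp2a2 from −0.16 to 0.38, reversed without OVA/LPS/GGsTop 4 and, to −0.036, without OVA/LPS/GGsTop 2, and Ryr2 from −0.085 to 0.49, reversed without OVA/LPS/GGsTop 4. With OVA/LPS/Vehicle 78 as the one vehicle library, Cacnb2 against PBS reversed to 0.063, Trpv4 against PBS to −0.034 and Atp2a2 with GGsTop to −0.0067. None of the reversed values was called. The cause was not tested. Values under 0.1 FPKM rest on few fragments.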
